A study of Mus musculus with 9 samples.

Results

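The genes described here mark bipolar cells, the interneurons that carry signals from photoreceptors to the inner retina. They are 9 of the 55487 genes listed in the deposited gene table, found there by symbol, and all 9 were among the 21049 genes that passed the filter on low counts. Prkca, Pcp2, Trpm1 and Grm6 were grouped as rod bipolar genes (4) and the other five as general bipolar genes (Vsx1, Otx2, Cabp5, Gng13 and Isl1). Explants were retinas from C57BL/6J mice, wild type and at postnatal day 28, kept for 48 h in Neurobasal-A medium with 5 mM glucose, either without further addition (control, 5 libraries) or with 20 mM 2-deoxyglucose (2-DG, 4 libraries), a glucose analog that cells take up and that inhibits glycolysis. Both groups were then held for 1 h in Krebs' Ringer medium before total RNA was taken, and the sclera and retinal pigment epithelium had been removed at dissection. The comparison addressed how gene expression in the retina differs when glycolysis is inhibited.

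No bipolar cell gene differed between 2-DG and control explants at an adjusted p of 0.05 in edgeR's quasi-likelihood test, and neither did any other gene (0% of all genes tested). An unadjusted p under 0.05 was reached by 0 of the 9 and by 7.25% of all genes, so these counts do not set the members apart. Their log2 fold changes lay between 0.11 (Gng13) and 1.10 (Prkca), all above 0, as were 49.2% of all genes, and the groups overlapped for every member, where 2.93% of all genes had no overlap. Summing the transcript counts of each gene in place of the deposited gene values gave Prkca a log2 fold change of 0.53. From the same gene counts, DESeq2 put 284 genes under the adjusted threshold (0 members). With limma-voom and sample quality weights 1222 genes were under it (1 member). What set the libraries apart was a spread within each group, up to 58.3-fold among control libraries for Isl1. The libraries control 5 and 2-DG 4 were the lowest pair for 6 of the 9 genes.

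ON bipolar cells, among them the rod bipolar cells, sense the glutamate that photoreceptors release in the dark through the metabotropic receptor mGluR6, whose G protein cascade closes the cation channel TRPM1. Light lowers the glutamate, the channel opens and the cell depolarises. OFF bipolar cells use ionotropic glutamate receptors and keep the sign of the photoreceptor signal. RNA from whole explants holds all retinal cells, so fewer bipolar cells and less RNA per bipolar cell cannot be told apart in these values.

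Among the rod bipolar genes, Grm6 encodes mGluR6 itself and Trpm1 the channel that the cascade controls. Prkca encodes protein kinase C alpha, the standard immunostaining marker of rod bipolar cells. Pcp2 encodes a GoLoco-domain protein that binds G protein alpha subunits and is shared with Purkinje cells of the cerebellum. On GRCm38, Grm6 lies at chr11:50850685-50866208 on the plus strand, Trpm1 at chr7:64153835-64269775 on the plus strand, Prkca at chr11:107933387-108343928 on the minus strand and Pcp2 at chr8:3623371-3625545 on the minus strand. Among the general bipolar genes, Otx2 encodes a homeodomain factor needed for photoreceptor and bipolar fates (chr14:48657677-48673819, minus strand), and is also expressed in photoreceptors and the pigment epithelium. Vsx1 encodes a homeodomain factor of cone bipolar subtypes (chr2:150680702-150689360, minus strand). Isl1 encodes a LIM homeodomain factor of ON bipolar cells (chr13:116298281-116309689, minus strand) that ganglion and some amacrine cells also use. Cabp5 encodes a calcium-binding protein of rod bipolar and some cone bipolar cells (chr7:13398132-13408887, plus strand), and Gng13 a G protein gamma subunit of ON bipolar cells that is also known from taste cells (chr17:25717171-25719406, plus strand).

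The sequences of the 250 bases before a RefSeq start (GRCm38.p6) are shown for Trpm1, Grm6 and Isl1, the members whose levels spread most among the control libraries. They are written on the strand of the gene, 5′ to 3′, and capitals mark the letters TAATCC or their reverse complement GGATTA, the core recognised by homeodomain proteins of the OTX and CRX kind. The windows are chr7:64153585-64153834 (plus strand) for the first of the 2 starts of Trpm1, chr11:50850435-50850684 (plus strand) for Grm6 and chr13:116309689-116309938 (minus strand) for Isl1.
Trpm1: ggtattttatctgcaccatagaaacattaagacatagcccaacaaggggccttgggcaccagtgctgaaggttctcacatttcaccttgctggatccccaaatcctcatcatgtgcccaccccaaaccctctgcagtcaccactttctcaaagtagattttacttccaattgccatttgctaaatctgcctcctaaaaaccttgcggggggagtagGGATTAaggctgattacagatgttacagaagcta
Grm6: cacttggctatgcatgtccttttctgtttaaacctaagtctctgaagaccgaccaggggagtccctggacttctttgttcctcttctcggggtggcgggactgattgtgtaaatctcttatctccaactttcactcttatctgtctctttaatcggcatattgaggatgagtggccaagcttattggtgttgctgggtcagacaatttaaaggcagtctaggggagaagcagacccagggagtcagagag
Isl1: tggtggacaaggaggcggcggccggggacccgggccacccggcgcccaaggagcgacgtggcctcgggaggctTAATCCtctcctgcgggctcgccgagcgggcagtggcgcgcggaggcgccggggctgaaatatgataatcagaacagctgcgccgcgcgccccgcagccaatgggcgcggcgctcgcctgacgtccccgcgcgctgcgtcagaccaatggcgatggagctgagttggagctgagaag
The match began 34 bases before this start in Trpm1, whose other window (chr7:64185209-64185458) held none, and 177 bases before the start in Isl1, and Grm6 held none in its window. Searched on both strands, TAATCC was present in 4 of the 17 RefSeq windows of the members, 1 window each of Trpm1, Otx2, Cabp5 and Isl1, and in 6.25% of all 32851 windows of the same length. TAATTA, a core that many other homeodomain proteins recognise and that reads the same on both strands, was present in 3 of the 17 windows (Otx2 and Pcp2) and in 4.84% of all windows. These are matches of letters, and no binding was measured here.

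The libraries held between 11317734 and 51802249 estimated counts, so that 3 counts correspond to 0.0556 to 0.255 CPM, the count scaled to the library size. Every member was above that floor in every library. Genes of the mitochondrial genome took 3.40% to 13.6% of the counts. The titles call the libraries biological replicates but do not say whether each came from its own animal. The p-values thus set the difference between the groups against the spread between these libraries, which all carry 1 batch label.

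Prkca was measured at 328, 100.02, 351, 206 and 47.7 CPM in control libraries 1 to 5, and at 767, 668, 272 and 68.5 CPM in 2-DG libraries 1 to 4. The 2-DG libraries 1 and 2 stood above every control, while 2-DG 4 was below all controls but control 5. The means were 207 ± 135 CPM (SD, n = 5) in control and 444 ± 329 CPM (SD, n = 4) in 2-DG. In the fit of the deposited gene values without a further term, the log2 fold change of Prkca, 1.10 ± 0.70 (standard error), was the largest of the 9 genes. Its 95% interval was -0.45 to 2.65 and its adjusted p was 0.771 by edgeR. On sums of transcript counts Prkca had 0.53, below Isl1 (0.77), Trpm1 (0.74) and Vsx1 (0.66).

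Pcp2 had 95.2, 77.2, 63.5, 39.1 and 17.2 CPM in the control libraries and 138, 110.3, 71.5 and 42.7 CPM in the 2-DG libraries. Here 2-DG 4 lay above controls 4 and 5, and control 2 was in the upper part of its group, unlike for Prkca. For Pcp2 edgeR gave a log2 fold change of 0.63 ± 0.47 (standard error; 95% interval -0.42 to 1.68, edgeR adjusted p = 0.801).

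Trpm1, the transduction channel, had 764, 53.4, 832, 391 and 59.0 CPM in the control libraries and 1236, 1011, 699 and 96.7 CPM in the 2-DG libraries. Controls 2 and 5 and 2-DG 4 formed a low set for this gene, at 53.4 to 96.7 CPM, and the other six libraries had at least 391 CPM. On the log2 scale the fold change of Trpm1 was 0.86 ± 0.88 (standard error; 95% interval -1.09 to 2.80, edgeR adjusted p = 0.843).

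Grm6, the receptor upstream of that channel, had 226, 76.4, 177, 101 and 5.17 CPM in the control libraries and 195, 197, 171 and 27.7 CPM in the 2-DG libraries. Control 1 was the highest library of all, and 3 of the 4 2-DG libraries lay between controls 1 and 4. The log2 fold change of Grm6 was 0.33 ± 0.81 (standard error; 95% interval -1.46 to 2.12, edgeR adjusted p = 0.936). For Grm6 it was 0.014 without control 5, 0.71 without control 1, 0.68 without 2-DG 4 and 0.53 without control 3, so its size depended on single libraries. Without both control 5 and 2-DG 4 it was 0.36.

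**Figure D1:**
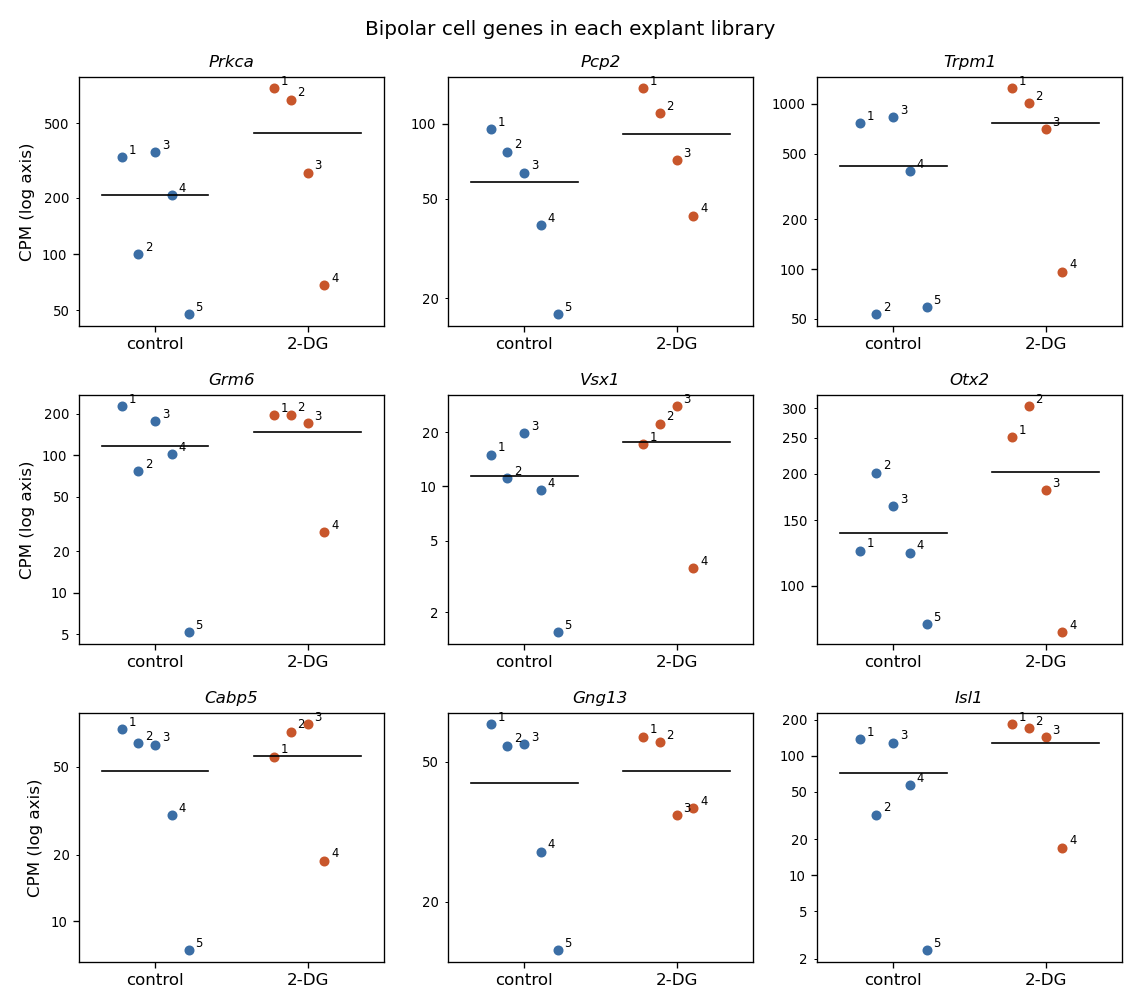
Each panel shows 1 bipolar cell gene, with CPM on a log axis, control libraries in blue, 2-DG libraries in orange, the replicate number beside each point and a line at the arithmetic mean of each group. Control 5 and 2-DG 4 lie at or near the bottom in most panels, Trpm1 is also low in control 2, and the groups overlap for all 9 genes.

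Among the general bipolar genes, Otx2 had the smallest spread in control libraries. It was measured at 124, 202, 164, 123 and 79.1 CPM in control and at 251, 303, 181 and 75.1 CPM in 2-DG libraries. The lowest library was 2-DG 4, and 2-DG 1 and 2 stood above all controls. For Otx2 the group means were 138 ± 46.4 CPM (SD, n = 5) and 202 ± 98.5 CPM (SD, n = 4). The difference amounted to 0.55 ± 0.39 in log2 fold change (standard error; 95% interval -0.32 to 1.42, edgeR adjusted p = 0.790).

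Isl1 had the largest spread. The control libraries had 138, 32.2, 128, 56.5 and 2.36 CPM and the 2-DG libraries 182, 169.6, 142 and 17.0 CPM. For Isl1, 3 of the 4 2-DG libraries were above every control and the last was below all controls but control 5. Isl1 thus had a log2 fold change of 0.84 ± 0.90 (standard error; 95% interval -1.15 to 2.82, edgeR adjusted p = 0.851).

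Vsx1 was the least abundant member, with 15.0, 11.1, 19.7, 9.51 and 1.55 CPM in control and 17.1, 22.3, 27.7 and 3.52 CPM in 2-DG libraries. The highest library of Vsx1 was 2-DG 3, which was not so for any rod bipolar gene. It had a log2 fold change of 0.64 ± 0.67 (standard error; 95% interval -0.83 to 2.12, edgeR adjusted p = 0.845).

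Cabp5 had 74.1, 64.1, 63.0, 30.1 and 7.40 CPM in control and 55.5, 72.1, 77.7 and 18.8 CPM in 2-DG libraries. Apart from controls 4 and 5 and 2-DG 4, the libraries of both groups fell within 55.5 to 77.7 CPM. The Cabp5 log2 fold change was 0.23 ± 0.59 (standard error; 95% interval -1.07 to 1.53, edgeR adjusted p = 0.938), and it was -0.055 without control 5, 0.52 without 2-DG 4 and 0.22 without both.

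Gng13 had 63.9, 55.6, 56.3, 27.8 and 14.6 CPM in control and 59.0, 56.9, 35.3 and 36.9 CPM in 2-DG libraries. It was the one member with 2-DG libraries above the control mean in 2 of 4 rather than 3 of 4, and the one whose lowest 2-DG library was 2-DG 3. The log2 fold change of Gng13 was 0.11 ± 0.40 (standard error; 95% interval -0.78 to 1.00, edgeR adjusted p = 0.960), and it took the opposite sign in 3 of the 9 fits without 1 library.

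Across all 21049 genes tested, edgeR called 0, a percentage of 0, with a smallest adjusted p of 0.181. An unadjusted p under 0.05 was reached by 1526 genes (7.25%) and by 0 of the 9 members. The groups did not overlap for 617 genes (2.93%) and for 0 of the 9 members. By their p the members ranked between the lowest 18.8% (Prkca) and the lowest 82.5% (Gng13) of all genes. A positive log2 fold change was seen in all 9 members (7 without control 5, 8 without control 4 or 2-DG 1) and in 49.2% of all genes, but the same 9 libraries enter every value and most members were low in the same libraries, so these are not 9 separate observations of a direction. The members' median log2 fold change was 0.63 beside -0.0089 over all genes. Other tools made other totals from the same counts, with 284 genes called by DESeq2 (0 members) and 1222 by limma-voom with sample quality weights (1 member, Otx2, at an adjusted p of 0.0478 and a log2 fold change of 0.93).

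**Figure D2:**
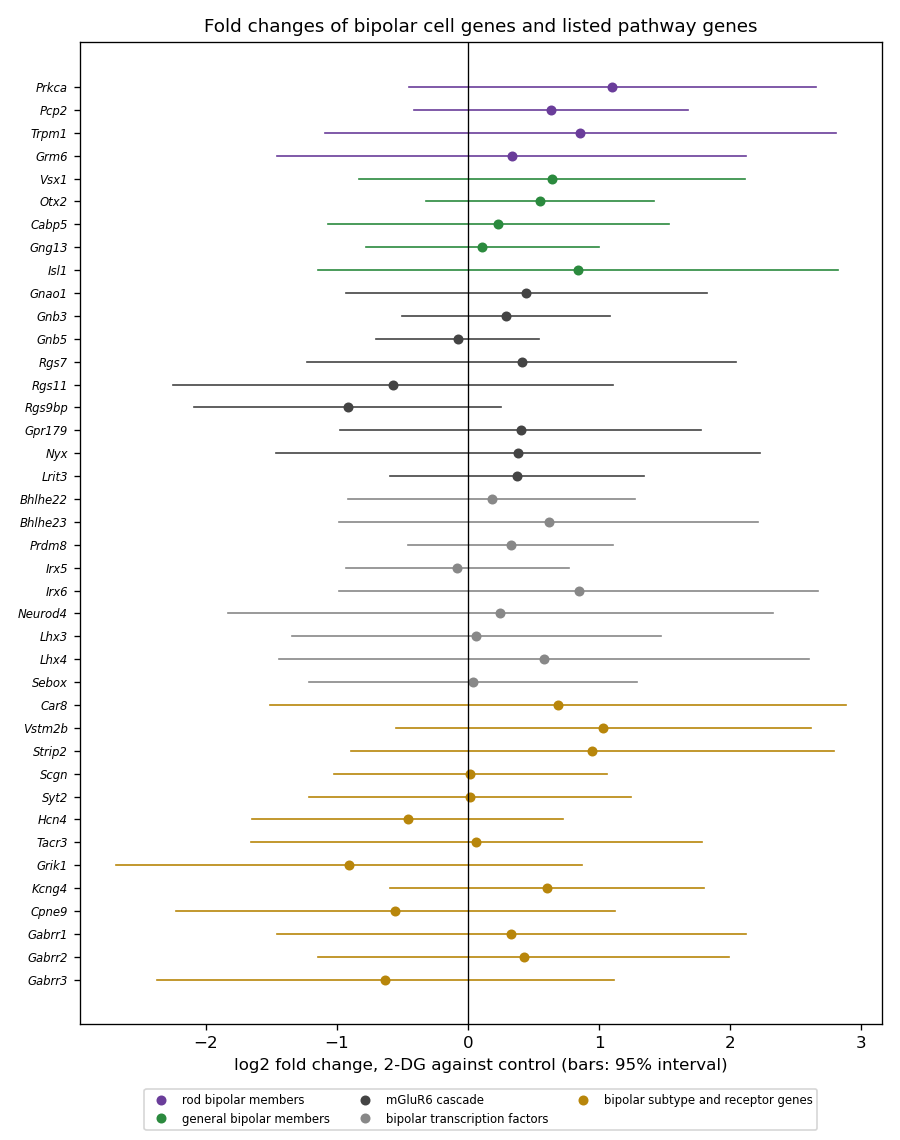
Points show the log2 fold change of 2-DG against control from edgeR and bars the 95% interval, for the 4 rod bipolar and 5 general bipolar genes and for further genes of bipolar cells from 3 lists. Each interval shown includes 0.

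The spread between libraries was large even against other genes. The SD of log2 CPM among control libraries was 2.38 for Isl1, larger than for 99.3% of all genes tested, and 2.18 for Grm6 and 1.96 for Trpm1, while the median over all genes was 0.61. Otx2, with 0.51, was the one member under that median. In 2-DG libraries the SD ran from 0.39 (Gng13) to 1.69 (Trpm1), beside a median of 0.55 over all genes.

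Control 5 was the lowest or next lowest library for each of the 9 members, while control 2 ranged from the lowest place (Trpm1) to place 7 of 9 from the bottom (Otx2). The mean log2 CPM over the 9 members was 3.67 in control 5, 4.95 in 2-DG 4, 5.87 in control 2 and 6.00 in control 4. The other five libraries lay between 6.89 (2-DG 3) and 7.32 (2-DG 1 and 2-DG 2), with controls 1 and 3 at 6.95 and 6.90. The lowest and the next lowest library thus belonged to different groups. Control 5 and 2-DG 4 were the lowest pair for 2 of the 4 rod bipolar and 4 of the 5 general bipolar genes, and for 14.6% of all genes tested. The exceptions were Trpm1, with control 2 lowest, Pcp2, with control 4 below 2-DG 4, and Gng13, with control 4 and 2-DG 3 below it.

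The same 3 libraries with the lowest member levels had the 3 highest mitochondrial shares, 9.97% in control 5, 13.6% in 2-DG 4 and 10.7% in control 2, against 3.40% to 6.68% in the others. They also had the highest summed levels of 8 rod photoreceptor genes, 14424, 15715 and 41430 CPM in that order, against 4765 to 9435 CPM elsewhere. With the mitochondrial share as a covariate, a fit added after the data were seen, Prkca had a log2 fold change of 0.81 and Trpm1 of 0.99, at unadjusted p of 0.0123 and 0.0134 and adjusted p of 0.264 and 0.271 by edgeR. That fit put 2828 of all genes (13.4%) under an unadjusted p of 0.05 and called 4, none of them a member. The part of library composition in the members' levels was otherwise not tested.

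**Figure D3:**
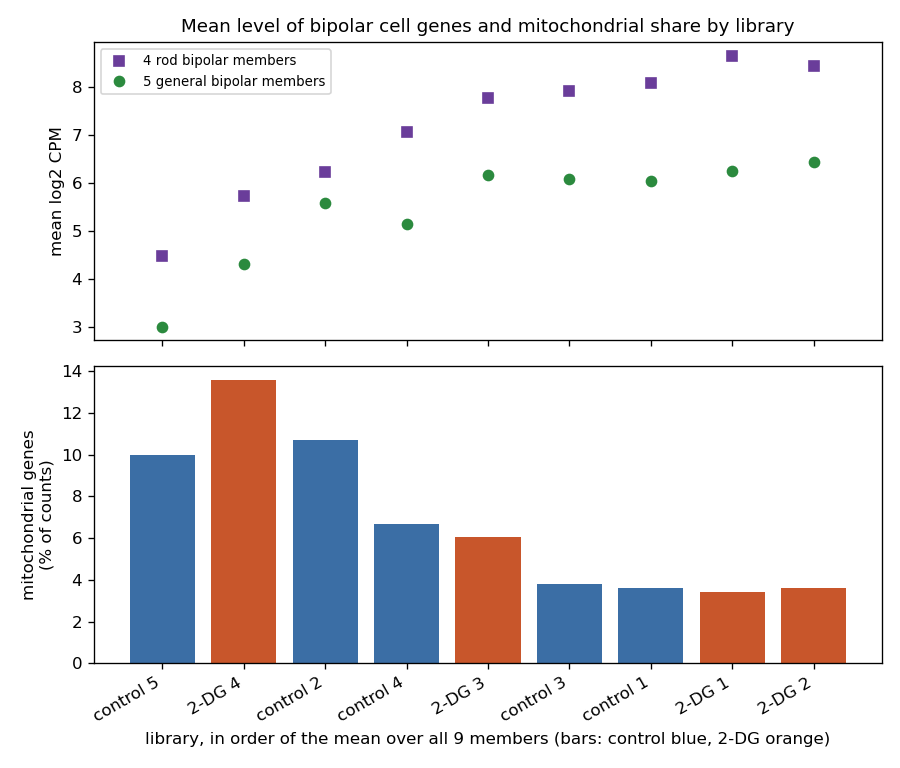
The upper panel shows the mean log2 CPM of the 4 rod bipolar genes (squares) and the 5 general bipolar genes (circles) in each library, ordered by the mean over all 9, and the lower panel the percent of counts in mitochondrial genes. Both sets are lowest in control 5, 2-DG 4 and control 2 or 4, and the 3 libraries at the left have the highest mitochondrial percentages.

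When control 5 and 2-DG 4 were both left out, a choice made after seeing that these same genes were lowest there, 8 of the 9 log2 fold changes were above 0 and none was called. Prkca then had 1.19 (unadjusted p = 0.0305 by edgeR) and Otx2 0.64 (unadjusted p = 0.0412 by edgeR), with a smallest adjusted p of 0.481 among the members. An unadjusted p under 0.05 was then reached by 2 of the 9 members and by 1972 of all genes (9.75%). Over the fits that left out 1 library at a time, the log2 fold change of Prkca lay between 0.71 and 1.46, that of Trpm1 between 0.53 and 1.26, that of Isl1 between 0.52 and 1.22 and that of Otx2 between 0.29 and 0.82. These 4 genes, with Pcp2 (0.37 to 0.88), Vsx1 (0.34 to 0.98) and Grm6 (0.014 to 0.71), thus stayed above 0 in each of those fits.

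**Figure D4:**
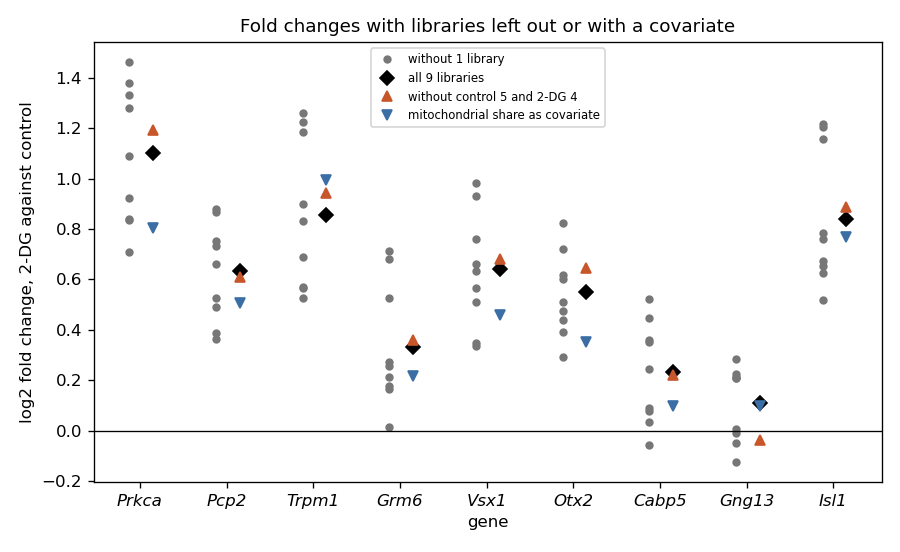
For each bipolar cell gene, grey points show the log2 fold change of 2-DG against control in the 9 fits without 1 library, the diamond the fit of all 9 libraries, the upward triangle the fit without control 5 and 2-DG 4, and the downward triangle the fit with the mitochondrial share as a covariate. Only points of Gng13 and Cabp5 fall under 0, the lowest at -0.12 and -0.055.

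Rod bipolar and general bipolar genes were then set against each other. The median log2 fold change was 0.74 for the 4 rod bipolar genes and 0.55 for the 5 general ones, a difference of 0.20, which ran from 0.0053 to 0.52 over the alternative fits. Within libraries, the mean log2 CPM of the rod bipolar genes exceeded that of the general genes by 2.05, 0.64, 1.81, 1.92 and 1.48 in controls 1 to 5, and by 2.39, 2.02, 1.60 and 1.40 in 2-DG libraries 1 to 4. The means of this excess were 1.58 ± 0.57 (SD, n = 5) and 1.85 ± 0.44 (SD, n = 4), and their difference of 0.28 was smaller than the pooled SD of 0.52. The values of control and 2-DG libraries overlapped, and this contrast was described without a test. Control 2 had the smallest excess, with a rod bipolar mean of 6.23 beside 8.08 in control 1 and a general mean of 5.59 beside 6.04.

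Ratios between members of 1 library showed that the low libraries were not low in the same way. The ratio of Trpm1 to Grm6 CPM was 0.70 in control 2 and 11.4 in control 5, and 3.38 to 6.34 in the other seven libraries, 2-DG 4 included at 3.49. Prkca over Pcp2 was lowest in control 2 at 1.30 and in 2-DG 4 at 1.60, and between 2.77 and 6.06 elsewhere. Isl1 over Cabp5 was 0.32 in control 5, 0.50 in control 2 and 0.90 in 2-DG 4, and between 1.83 and 3.29 in the others. Between the main coding forms of the channel and the receptor, Trpm1-201 and Grm6-201, the ratio of CPM was 5.26 in control 2 and 7.46 in control 5, and 3.50 to 5.13 in the other seven, so that control 2 lay far from the rest for the whole genes and near them for the coding forms.

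Levels of different genes were compared per transcript length, as TPM, a length-scaled share of all transcripts, computed from the transcript table. In control explants the order was Trpm1 (287 ± 273 TPM, SD, n = 5), Gng13 (198 ± 115), Pcp2 (197 ± 119.6), Otx2 (165 ± 56.7), Prkca (96.8 ± 75.8), Isl1 (94.96 ± 86.8), Grm6 (79.9 ± 66.7), Cabp5 (62.8 ± 40.7) and Vsx1 (6.60 ± 4.65 TPM). Most neighbours in this order did not differ beyond their spread. Vsx1 was last in all 9 libraries, and Otx2 was above Prkca in 8 of 9, whereas Trpm1 was above Gng13 in 6 of 9 and Gng13 above Pcp2 in 4 of 9. Trpm1 was first in 6 libraries and eighth in control 2. In 2-DG explants Trpm1 was at 497 ± 341 TPM (SD, n = 4) and Vsx1 at 10.5 ± 6.81 TPM.

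The 3 lists of further bipolar genes gave 0 calls, where edgeR called 0 of all genes. They also had 0 calls under each of the 22 alternative fits, among which DESeq2 called 284 of all genes (1.36%), limma-voom 1222 (5.81%) and the fit with 2 surrogate variables 725 (3.44%). Of 9 genes of the mGluR6 cascade, 6 had a log2 fold change above 0, with a median of 0.38 that was 0.10 without control 5 and 0.64 without 2-DG 4. The smallest p among them was that of Rgs9bp, an anchor of RGS proteins that photoreceptors share, with a log2 fold change of -0.92 ± 0.53 (standard error, edgeR adjusted p = 0.751). Rgs9bp had 667 CPM in control 2 and 100.2 to 188 CPM in all other libraries. Lrit3, a leucine-rich repeat protein needed to place TRPM1 at the dendrite, had 0.38 ± 0.44 (log2 fold change ± standard error), and Gnb3, the G protein beta subunit of ON bipolar and cone cells, 0.29 ± 0.36.

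Of 10 transcription factors of bipolar cells, 9 had a log2 fold change above 0, with a median of 0.29 that was 0.063 without control 5 and 0.58 without 2-DG 4. Irx6, a factor of cone bipolar subtypes, had 0.84 ± 0.83 (log2 fold change ± standard error) and Prdm8, a repressor needed for rod bipolar cells, 0.32 ± 0.35. Of 13 subtype and receptor genes, 9 were above 0, with a median of 0.062 that was -0.22 without control 5, -0.11 without 2-DG 2 and 0.41 without 2-DG 4. Vstm2b had 1.03 ± 0.72, Strip2 0.95 ± 0.83 and Grik1, a kainate receptor subunit of OFF bipolar cells, -0.91 ± 0.80. Grik1 was at 194 to 267 CPM in controls 1 to 4 and at 118 to 145 CPM in 2-DG libraries 1 to 3, but at 5.43 CPM in control 5 and 30.9 CPM in 2-DG 4. Many list genes were low where the members were, with control 5 and 2-DG 4 the lowest pair for 23 of the 32 genes and control 5 the lowest library for 25.

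The genes most like the rod bipolar profile were found by the root mean square difference of centred log2 CPM over the 9 libraries, among 16002 other protein-coding genes. Among the closest were Robo2 (0.20), an axon guidance receptor, and Ppm1e (0.21), a protein phosphatase, where the median gene was at 1.39. The general bipolar profile was closest to Csmd2 (0.20), Map6d1 (0.23) and Tram1l1 (0.24), with the median gene at 1.15. These are descriptions over 9 libraries, in which every gene of a library shares its depth and cell composition.

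At the level of transcripts, 49 of the 60 listed for the members were tested, and 0 passed the adjusted threshold, as was so for all 62900 transcripts (a percentage of 0). An unadjusted p under 0.05 was reached by 2 of the 49 (3.45% of all transcripts), Pcp2-203 and Otx2-203, both minor forms. A log2 fold change above 0 was seen in 41 of the 49, beside 51.1% of all transcripts. Pcp2-203 made up 0.59% ± 0.47 (SD, n = 5) of the gene's estimated counts in control and 3.31% ± 1.87 (SD, n = 4) in 2-DG explants, without overlap, as was so for 1.44% of transcripts of genes with several. Pcp2-203 had a log2 fold change of 2.73 ± 0.96 (standard error) and Otx2-203 of 1.50 ± 0.59 (edgeR adjusted p = 1 for both).

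The share of the main forms also varied between libraries. Grm6-201, which encodes the receptor, made up 62.6%, 15.7%, 64.6%, 63.5% and 43.8% of the Grm6 counts in controls 1 to 5 and 57.6% to 68.9% in 2-DG libraries. Control 2 had 82.7% of its Grm6 counts on Grm6-202, a form annotated without a coding sequence, so its 76.4 CPM of Grm6 were for the most part not assigned to the coding form. Trpm1-201 made up 88.4% of the Trpm1 counts in control 2 and 38.3% in control 5, where a retained-intron form, Trpm1-204, held 26.7%, against 58.7% to 71.4% for Trpm1-201 in the other libraries. For Pcp2, control 2 was again apart, with 22.0% on Pcp2-204 and 62.1% on Pcp2-202, while the other libraries had 44.0% to 82.7% on Pcp2-204. Prkca-201, the long coding form, made up 63.1% and 60.2% in 2-DG 1 and 2, the libraries with the highest Prkca, and 77.3% to 95.7% in the other seven. In CPM Prkca-201 was at 276 and 238 in those libraries, below controls 1 and 3 with 355 and 323.5, and its log2 fold change was 0.19 ± 0.54 (standard error) beside 1.10 for the gene. The main coding form of Otx2, Otx2-201, had a log2 fold change of -0.014 ± 0.38 beside 0.55 for the gene. The deposited gene values differ from summed transcript values, and for Prkca the gene value was 0.65 to 1.10 times that sum in 7 libraries but 1.75 and 1.69 times in 2-DG 1 and 2. Fitted on sums of transcript counts, an alternative added after the data were seen, the log2 fold change was 0.53 for Prkca, 0.33 for Pcp2, 0.34 for Otx2 and 0.74 for Trpm1, with 0 members called. The deposited counts do not carry the uncertainty of dividing reads between transcripts.

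**Figure D5:**
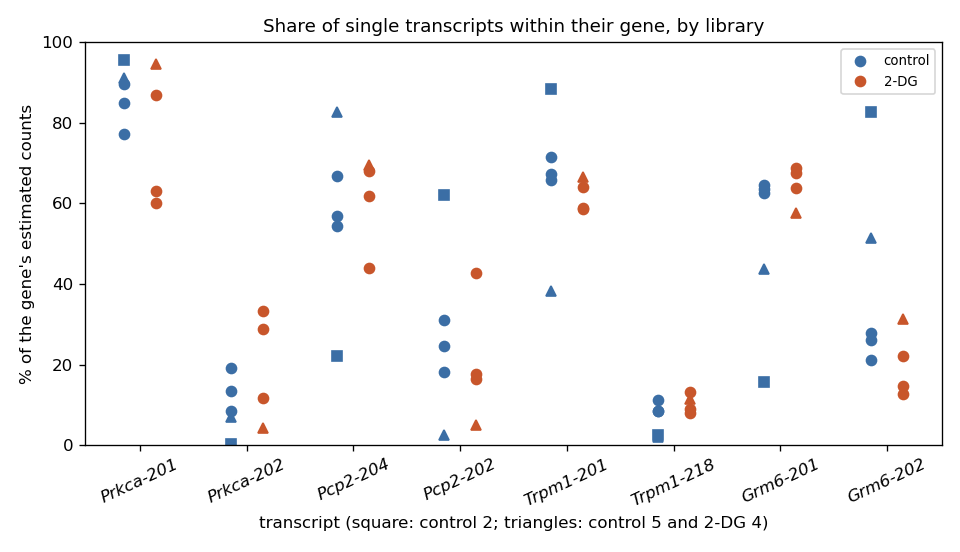
Each point is 1 library, control in blue and 2-DG in orange, and shows the percent of a gene's estimated counts assigned to the transcript named on the horizontal axis, for the 2 most abundant transcripts of each rod bipolar gene. Squares mark control 2 and triangles control 5 and 2-DG 4, and control 2 has the lowest share of Grm6-201 (15.7%) and the highest shares of Grm6-202 (82.7%) and Trpm1-201 (88.4%).

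Markers of the other retinal cells were summed in CPM to show the composition that came with these levels. All 8 rod genes had log2 fold changes below 0 (0 called) and their sums ran from 4765 to 41430 CPM in control and from 7210 to 15715 CPM in 2-DG libraries. The highest sum was that of control 2, and the next control was at 14424 CPM. The median sum went the other way, at 8572 CPM with 2-DG against 8259 CPM without it. The part of control 2 in the 8 negative fold changes was not tested. Of 6 Müller glia genes 2 were above 0, with 1719 to 6616 CPM in control and 817 to 3395 CPM in 2-DG, and control 5, the lowest library for most members, had the highest sum. The most abundant of them, Glul, had a log2 fold change of -1.28 (edgeR adjusted p = 0.689). Cone genes were above 0 in 5 of 6, the exception being the most abundant, Arr3 (log2 fold change -0.22), amacrine genes in 3 of 7 (Gad1), horizontal cell genes in 0 of 4 (Calb1) and ganglion cell genes in 0 of 6 (Nefl), with 0 called in each list. Isl1, which amacrine and ganglion cells also express, was low in control 2, whose ganglion cell sum of 1409 CPM was the highest of all libraries. The part of amacrine and ganglion cells in the level of Isl1 was not tested.

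The 9 genes of pigment epithelium and melanocytes, of which 6 were tested and 0 called, summed to 289 CPM in 2-DG 3 and 35.5 CPM in 2-DG 4, and to 3.56 to 15.3 CPM in the other libraries, 4 of which had 1 of the genes at 0. Dct was the most abundant (89.5 CPM at most, log2 fold change 3.71, edgeR adjusted p = 0.526). Otx2 and Trpm1, which pigmented cells also express, were both lower in 2-DG 3 than in 2-DG 1 and 2, with 181 and 699 CPM. Without 2-DG 3 the fold changes of all 9 members remained above 0. The part of these cells in the members' levels was not tested.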

How the data were processed

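The RNA-seq data comprised 5 control and 4 2-DG explant libraries, grouped by sample title. Per the labels, stranded total RNA libraries were made from 4 ng of RNA with 13 PCR cycles and read as pairs of 101 bases. The authors deposited estimated counts per gene and per transcript, unscaled; the submitters' processing notes name kallisto and GRCm38, with no version. Deposited gene values differ from the summed transcript values, and how the gene values were made is not given in the sources used here. A further deposited table holds the authors' CPM, on scaled library sizes, for 12568 genes with all 9 members, and served only for an alternative scaling, and a table of the authors' own comparison (fold change, mean level, F, p-values) was not used.

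Estimated counts were rounded (totals changed by at most 0.00377%). In edgeR 4.0.16 (R 4.3.3), filterByExpr kept 21049 genes, TMM scaled the libraries, and glmQLFit (legacy=TRUE, robust=FALSE) with glmQLFTest compared the groups without a further term. Adjusted p-values are Benjamini-Hochberg values over all genes kept. Transcripts were tested likewise. Standard errors are the absolute log2 fold change over the square root of F, and intervals use the t distribution. CPM refer to TMM-scaled library sizes, log2 CPM have a prior count of 2, and symbols and coordinates come from the gene name table (99.4% of IDs matched) and GENCODE M21. TPM used annotated transcript lengths (99.1% of transcripts). Promoter windows come from RefSeq. The steps were tested on simulated data.

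The members, lists, tests and alternatives were chosen with earlier results of these data known, so no p was adjusted over a list alone. Text names all members, the 3 genes of each list with the smallest p, the 3 genes most like each profile and the most abundant gene of each marker list, apart from items not reported here. Transcripts were named after their values were seen. Alternatives were other scalings, no filter, DESeq2 1.42.0, limma-voom (limma 3.58.1), robust fits, a replicate block, 2 surrogate variables (sva 3.50.0) and leaving out each library. A fit without control 5 and 2-DG 4, one on summed transcript counts, one with the authors' library sizes and one with the mitochondrial share as covariate were added after the data were seen. The reads carry no molecular identifiers in the sources used here, so floors cover counting error only.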

Additional observations from a re-analysis of the deposited data

Results flagged for a closer look

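The range of 4 or 5 libraries of a group was examined in 34 sets of values, 18 of them of members, and chance alone puts about 1 in 20 such sets past the limit used (Dixon's 95% limit for the gap of an end value). In all, 5 were past it. Grm6 in 2-DG 4, at 27.7 CPM, was far from the other 2-DG libraries, which lay between 171 and 197 CPM. The other four concern summed markers of other cells. The rod sum of control 2 was 41430 CPM, with the next control at 14424 CPM. The cone sum of control 2 was 547 CPM, with the next control at 86.7 CPM. In 2-DG 3 the cone sum was 678 CPM, with the next 2-DG library at 122 CPM, and the sum of pigment epithelium and melanocyte genes was 289 CPM, with the next at 35.5 CPM.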

How the results depend on the processing

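Of 198 log2 fold changes of members under the 22 alternatives, 189 kept their direction and their side of the threshold. One passed it, Otx2 under limma-voom with sample quality weights (0.93, adjusted p = 0.0478, against 0.0478 to 0.987 for Otx2 over all alternatives), which made the count of members called 1 in place of 0. In all, 8 reversed. With the replicate block Grm6 was at -0.18, Cabp5 at -0.15 and Gng13 at -0.085; without control replicate 5 Cabp5 was at -0.055 and Gng13 at -0.12; Gng13 was at -0.047 without control replicate 4, at -0.0099 without 2-DG replicate 1 and at -0.038 without control 5 and 2-DG 4. The cause was not tested. The block took Prkca from 1.10 to 0.48, Vsx1 from 0.64 to 0.091 and Isl1 from 0.84 to 0.30, 2 surrogate variables took Trpm1 from 0.86 to 0.33, limma-voom took Cabp5 to 0.74 and Gng13 to 0.61, and sums of transcript counts took Prkca to 0.53. Over the fits without 1 library, Cabp5 ran from -0.055 to 0.52 and Gng13 from -0.12 to 0.29.

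The count of genes called, 0 here, was 284 with DESeq2, 1222 with limma-voom, 725 with 2 surrogate variables and 4 with the mitochondrial covariate. It ran from 0 to 16 when 1 library was left out (16 without control 2, 2 without 2-DG 4) and was 0 under the other alternatives. List medians also turned sign: with the block to -0.056 (mGluR6 cascade), -0.040 (transcription factors) and -0.36 (subtype and receptor genes), and for the last list also without control 5 (-0.22), without 2-DG 2 (-0.11), with the mitochondrial covariate (-0.10) and with the authors' library sizes (-0.015). Members above 0 numbered 6 with the block and 7 to 9 when 1 library was left out. The authors' library sizes moved the median of all genes to -0.10.

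Deviations of same-numbered libraries correlated at 0.45, -0.16, 0.10 and 0.21. Libraries with different numbers were not compared in this way, so these values cannot decide whether replicate numbers pair the libraries. The block called 0 genes (1351 at an unadjusted p under 0.05). With 4 or 5 libraries a group and a biological coefficient of variation of 51.5%, the members' 95% intervals still allow log2 fold changes from -1.46 (Grm6) to 2.82 (Isl1).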
